A study of Mus musculus with 6 samples.

Results

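The unfolded protein response and the integrated stress response adjust a cell to misfolded protein in the endoplasmic reticulum (ER) and to amino acid shortage. The 42 genes described here are 21 genes of the ATF4 amino acid branch and 21 genes of the ATF6 and XBP1 branch of ER chaperones and ER-associated degradation, of 15824 genes in the expression table. They were chosen by pathway membership, not by a cut on their values, though earlier results of these data were known. All 42 passed the filter on low counts that left 11817 genes for testing. RNA was measured by polyA-selected sequencing in 6 libraries of alveolar macrophages, the phagocytes that live in the air sacs, taken by cell sorting from lungs of mice aged 8 weeks. Of these, 3 libraries came from mice with Men1 knocked out (KO) and 3 from wild-type mice (WT), with no further treatment named. Men1 encodes menin, a scaffold protein that joins MLL histone methyltransferases to chromatin. The sources used here do not name the strain, the Cre driver or promoter, the deleted exons, the sexes or the number of animals behind a library, so p-values measure only how these libraries spread, and that spread may be technical.

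In the ATF4 branch, the kinase PERK on the ER membrane and the amino acid sensing kinase GCN2 phosphorylate the initiation factor eIF2, which slows most translation but favours translation of the transcription factor ATF4. ATF4 then drives genes for amino acid uptake and synthesis, for glutathione metabolism and, through CHOP, for the response to prolonged stress. In the other branch, IRE1 splices the Xbp1 mRNA and ATF6 is released by cleavage in the Golgi, and both factors raise chaperones and the machinery that removes misfolded proteins from the ER. Because ATF4, XBP1 and ATF6 are controlled at translation, splicing and cleavage, total mRNA of these factors does not measure their activity, and spliced Xbp1 was not analysed here.

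Estimated counts per library summed to between 19955232 and 20151985. Men1 itself had 150, 149 and 165 counts in the 3 KO libraries, against 639, 594 and 603 counts in the 3 WT libraries (edgeR's quasi-likelihood test, Benjamini-Hochberg adjusted p = 7.24e-24). In all, 8179 of 11817 tested genes, or 69.2%, passed an adjusted p of 0.05, with an estimated biological coefficient of variation of 1.66%, so that small differences passed. The groups also differed beyond Men1. The 4 Y-linked genes Eif2s3y, Ddx3y, Kdm5d and Uty each had at most 2 counts in any KO library, against at least 283 in every WT library. Among them, Eif2s3y had 0 counts in every KO library, against 1511, 1452 and 1530 counts in WT libraries. This Y-linked difference and the genotype cannot be told apart. Of 15 alveolar macrophage markers, 12 were in the table, and Car4, Krt79 and Cidec were not. Ear2, Fabp1 and Plet1 had at most 3 counts in every library, and Ear1 had at most 4. Siglecf had 1.34 ± 0.154 CPM in KO and 2.06 ± 0.381 CPM in WT libraries (CPM being counts scaled to library size, SD, n = 3 each). Other markers of the list went both ways. Marco was higher in KO libraries, at 1137 ± 22.8 CPM in KO and 172 ± 2.17 CPM in WT libraries. Mrc1, at 131 ± 5.43 CPM in KO and 95.4 ± 1.51 CPM in WT libraries, and Chil3 were higher too. So was Trim29, though low in both groups, at 1.63 ± 0.323 CPM in KO and 0.425 ± 0.28 CPM in WT libraries. Atp6v0d2 was lower, at 60.8 ± 0.928 CPM in KO and 119 ± 3.99 CPM in WT libraries. Pparg (13.1 ± 1.08 CPM in KO, 19 ± 0.534 CPM in WT) and Itgax (43.8 ± 1.4 CPM in KO, 53 ± 2.37 CPM in WT) were lower too. The whole list summed to 1390 to 1427 CPM in KO and 464 to 476 CPM in WT libraries, with Marco making up most of the KO sum. The label of alveolar macrophages is therefore only partly borne out by this list, with Siglecf low and Ear1, Ear2, Fabp1 and Plet1 nearly absent in both groups. The 6 general macrophage markers summed to 14450 to 14585 CPM in KO and 9598 to 9739 CPM in WT libraries. Markers of fibroblasts (7 of 7 in the table) summed to 7.61 to 8.66 CPM in KO and 68.8 to 70.7 CPM in WT libraries. Markers of neutrophils (7 of 8 in the table) summed to 684 to 705 CPM in KO and 850 to 869 CPM in WT libraries, a sum made up mostly of Mmp8, which was lower at 558 ± 10.7 CPM in KO and 800 ± 10.9 CPM in WT libraries, while Csf3r and S100a8 were 3.21-fold and 1.87-fold higher. Markers of T and NK cells (7 of 9) summed to 3.77 to 3.81 CPM in KO and 0.78 to 1.03 CPM in WT libraries. Klrb1c made up most of the KO sum, at 2.55 ± 0.142 CPM in KO and 0.0655 ± 0.0751 CPM in WT libraries. Cd3e, Cd3d, Cd3g, Nkg7 and Ncr1 had at most 6 counts in every library. Markers of epithelium (4 of 7) summed to 0.815 to 1.28 CPM in KO and 2.16 to 2.44 CPM in WT libraries. Markers of B and plasma cells (11 of 11), which use the ER branch heavily, summed to 177 to 178 CPM in KO and 125 to 130 CPM in WT libraries, while the defining Pax5 and Tnfrsf17 had at most 3 counts in every library. The part of these markers, and of the Y-linked difference, in the results below was not tested.

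The promoters of the 2 branches carried different elements. The 7 promoters shown are those of members whose values the results turn on and that carry a known element. Each line gives the 250 bases before the start site, 5′ to 3′ on the gene's strand, from RefSeq on GRCm38.p6. Capitals in the first 4 mark TGATGNAA on either strand, the core of the C/EBP-ATF response element (CARE) read by ATF4 dimers. Capitals in Hspa5 and Hsp90b1 mark CCAAT, 9 bases of any kind and CCACG on either strand, the ER stress response element (ERSE) read by ATF6 and XBP1 with NF-Y. Capitals in Herpud1 mark ATTGG, 1 base of any kind and CCACG, the related ERSE-II, and a CARE. Their places are chr3:50443614-50443863 (minus strand) for Slc7a11, which lies within the longer annotated span of that gene, chr6:7693210-7693459 (minus) for Asns, chr7:126625471-126625720 (minus) for Nupr1, chr2:119350992-119351241 (plus) for Chac1, chr2:34771840-34772089 (plus) for Hspa5, chr10:86705445-86705694 (minus) for Hsp90b1 and chr8:94386179-94386428 (plus) for Herpud1.
Slc7a11: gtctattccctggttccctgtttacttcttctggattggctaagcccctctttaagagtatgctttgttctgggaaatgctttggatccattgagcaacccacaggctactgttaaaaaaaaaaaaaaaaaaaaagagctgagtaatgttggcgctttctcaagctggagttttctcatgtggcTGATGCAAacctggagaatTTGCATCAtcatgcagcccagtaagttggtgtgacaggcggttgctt
Asns: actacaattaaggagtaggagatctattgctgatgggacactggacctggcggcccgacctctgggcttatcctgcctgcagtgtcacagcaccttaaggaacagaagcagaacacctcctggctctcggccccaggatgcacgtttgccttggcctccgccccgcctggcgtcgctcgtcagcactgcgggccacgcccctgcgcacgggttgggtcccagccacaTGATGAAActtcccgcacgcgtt
Nupr1: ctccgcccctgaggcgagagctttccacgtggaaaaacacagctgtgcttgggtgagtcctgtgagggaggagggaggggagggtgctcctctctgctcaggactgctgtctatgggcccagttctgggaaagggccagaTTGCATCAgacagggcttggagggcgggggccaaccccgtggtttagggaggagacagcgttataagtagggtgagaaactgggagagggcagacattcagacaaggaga
Chac1: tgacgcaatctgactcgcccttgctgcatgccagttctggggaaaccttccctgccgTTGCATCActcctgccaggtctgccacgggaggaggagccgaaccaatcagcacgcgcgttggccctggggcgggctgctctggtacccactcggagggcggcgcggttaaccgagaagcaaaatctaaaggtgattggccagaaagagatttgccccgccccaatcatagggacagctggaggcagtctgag
Hspa5: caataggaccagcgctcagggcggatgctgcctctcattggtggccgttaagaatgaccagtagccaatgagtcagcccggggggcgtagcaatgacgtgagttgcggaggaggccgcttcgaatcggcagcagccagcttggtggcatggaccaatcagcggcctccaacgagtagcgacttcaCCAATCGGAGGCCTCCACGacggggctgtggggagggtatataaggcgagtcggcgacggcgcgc
Hsp90b1: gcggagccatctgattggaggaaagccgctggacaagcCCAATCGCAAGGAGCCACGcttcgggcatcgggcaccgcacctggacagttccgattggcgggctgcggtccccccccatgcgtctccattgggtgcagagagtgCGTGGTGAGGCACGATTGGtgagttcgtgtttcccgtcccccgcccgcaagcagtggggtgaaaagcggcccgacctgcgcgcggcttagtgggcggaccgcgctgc
Herpud1: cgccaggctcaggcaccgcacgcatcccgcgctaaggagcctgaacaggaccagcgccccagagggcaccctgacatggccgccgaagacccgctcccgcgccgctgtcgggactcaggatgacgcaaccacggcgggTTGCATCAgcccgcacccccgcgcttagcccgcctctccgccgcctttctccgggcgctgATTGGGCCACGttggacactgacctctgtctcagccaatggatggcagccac

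A RefSeq window of 300 bases, reaching 50 bases past the start site, was found for 38 of the 42 members, 20 in the ATF4 branch and 18 in the ER branch. Atf5, Psat1 and Vldlr had 2 windows each, so that there were 41 windows in all, and a gene is counted below where any of its windows holds the motif. ERSE letters stood upstream of 8 of 18 ER branch genes (44.4%), those being Hspa5, Hsp90b1, Calr, Canx, Pdia6, Dnajc3, Syvn1 and Creld2. None of the 20 ATF4 branch genes had ERSE letters, against 15 of 9537 tested genes with a window (0.157%), and 39 of all 32851 promoters of the same length held them (0.119%). Hsp90b1 held 2 matches, starting 212 and 107 bases before the start site. ERSE-II letters stood in Dnajb11 and Herpud1, 2 of 18 ER branch genes (11.1%), against 9 of 9537 tested genes (0.0944%) and 12 of 32851 promoters (0.0365%). CARE letters stood in the windows of 6 of 20 ATF4 branch genes (30%), those being Trib3, Nupr1, Asns, Chac1, Slc7a11 and, in 1 of its 2 windows, Vldlr, and of 1 of 18 ER branch genes, Herpud1 (5.56%). Over 9537 tested genes the count was 272 (2.85%), and over 32851 promoters it was 1304 (3.97%). Slc7a11 held 2 matches on opposite strands, starting 66 and 47 bases before the start site. The XBP1 element core TGACGTGG stood in none of the 41 windows, in 95 of 9537 tested genes (0.996%) and in 222 of 32851 promoters (0.676%). Both strands were read for each motif, no motif contains another, and a match is a description of letters, not of binding. The counts over tested genes and over all promoters include the members themselves, so the 15 tested genes with ERSE letters include the 8 named above. As the members were chosen by pathway membership, these shares are a description, and their difference was not tested.

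**Figure D1:**
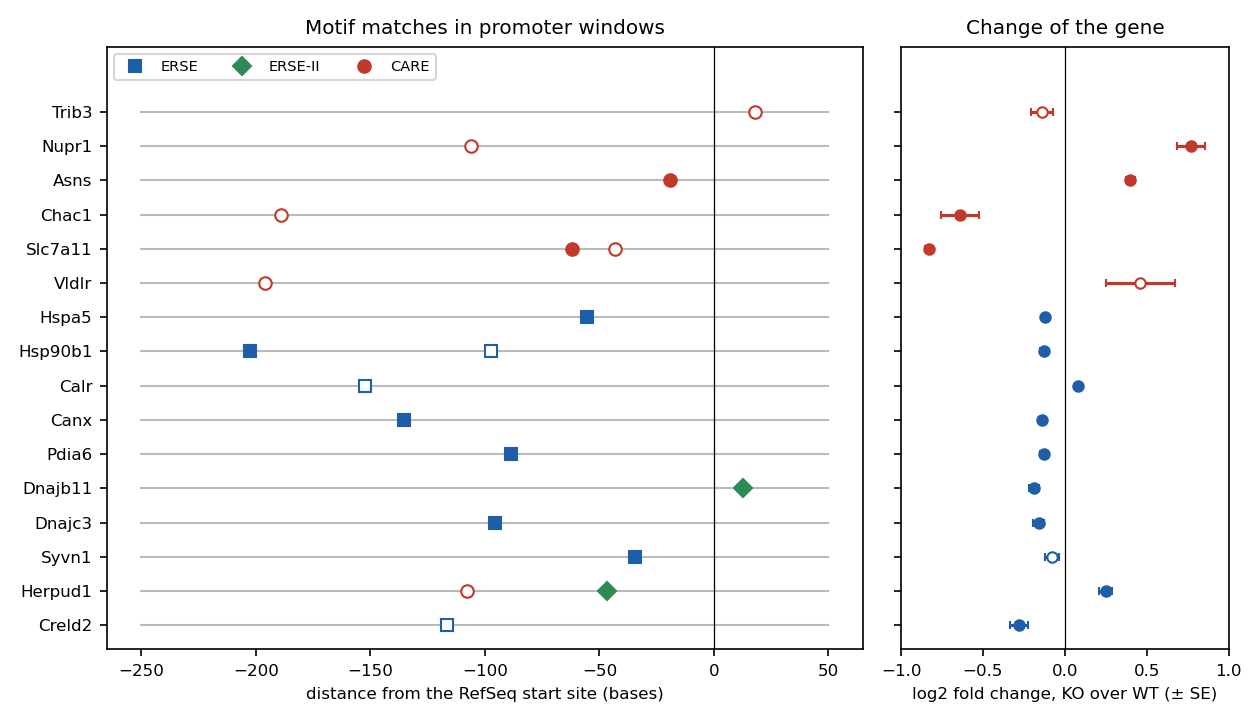
On the left, centres of motif matches in bases from the RefSeq start site, with 1 row per promoter that holds a match, filled on the gene's strand and open on the other. On the right, the gene's log2 fold change, KO over WT, with 1 standard error, filled where the adjusted p is under 0.05; ERSE matches lie in ER branch promoters alone, and 6 of 7 promoters with a CARE match belong to the ATF4 branch.

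Fold changes lay further apart in the ATF4 branch than in the ER branch, a difference between lists that was not tested. In the ATF4 branch, 6 of 21 genes were higher and 8 were lower in KO than in WT libraries, against 34.4% higher and 34.9% lower over all tested genes (edgeR, adjusted p under 0.05). The branch's share of calls, 66.7%, lies near the 69.2% over all tested genes. In the ER branch, 5 of 21 genes were higher and 12 were lower, or 81% called. Changes of at least 1.5-fold that also passed the test were seen in 4 ATF4 branch genes, of which Nupr1 was higher and Slc7a11, Chac1 and Ddit4 were lower, and in 0 of 21 ER branch genes, against 8.4% higher and 9.39% lower over all tested genes. Log2 fold changes ran between -0.83 and 0.77 in the ATF4 branch and between -0.28 and 0.25 in the ER branch. The median absolute log2 fold change was 0.23 in the ATF4 branch and 0.13 in the ER branch, against 0.24 over all tested genes. The median signed log2 fold change was -0.09 in the ATF4 branch and -0.12 in the ER branch, against 0.00 over all tested genes. KO and WT libraries did not overlap for 17 ATF4 branch genes and 18 ER branch genes, against 71.2% of all tested genes. In bulk RNA, fewer cells of a type and less RNA per cell cannot be told apart, here and in every result that follows.

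The split between higher and lower calls depends on how libraries are scaled. On log2(TPM + 1), where the median over all genes itself lies at -0.12, the ATF4 branch had 3 higher and 13 lower genes and the ER branch 1 higher and 17 lower. With the library medians set equal on the same scale, the ATF4 branch had 7 higher and 9 lower genes and the ER branch 5 higher and 12 lower. An assumed biological coefficient of variation of 0.1, a wider spread than these libraries show, left 2 higher and 7 lower genes in the ATF4 branch and none in the ER branch, where 3 genes had an unadjusted p under 0.05. The members outside the calls that passed on log2(TPM + 1) were Trib3, Ppp1r15a, Psph, Mthfd2, Sesn2, Pdia3, Pdia4, Dnajb9 and Syvn1, all lower. The 9 members called in the same direction in all 20 alternative settings were Nupr1 and Asns, both higher, and Atf4, Ddit3, Atf5, Phgdh, Chac1, Slc7a11 and Ddit4, all lower.

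**Figure D2:**
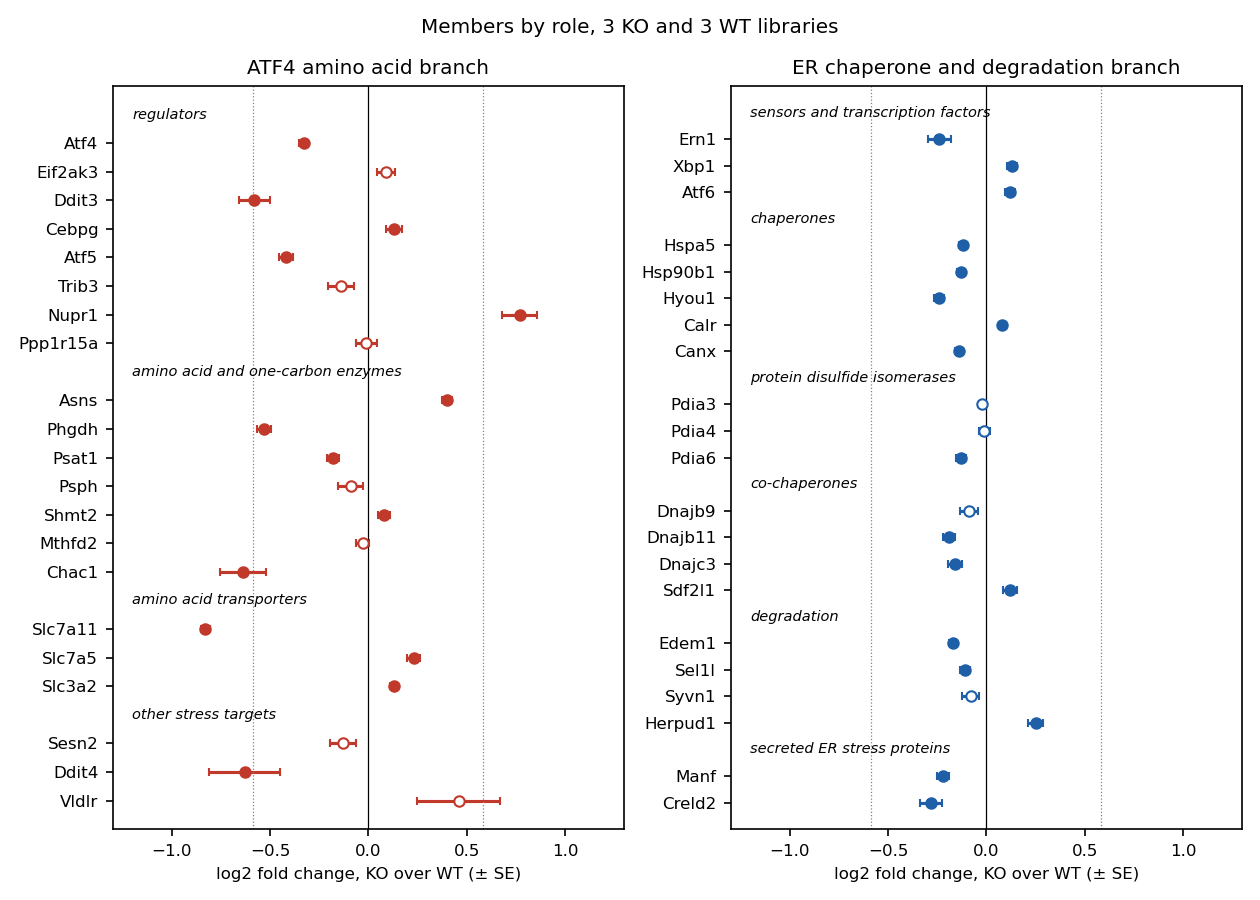
Log2 fold change of each member, KO over WT, with bars of 1 standard error from edgeR's quasi-likelihood fit, by branch and role, filled where the adjusted p is under 0.05, with dotted lines at 1.5-fold. ATF4 branch genes lie between -0.83 and 0.77, while every ER branch gene lies between -0.28 and 0.25.

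Among the 8 regulators of the ATF4 branch, the transcripts of 3 factors, Atf4, Ddit3 and Atf5, were lower in KO libraries. Atf4 (chromosome 15, 80255184 to 80257545), the factor that gives the branch its name, had 168, 171 and 172 CPM in KO libraries, against 218, 213 and 213 CPM in WT libraries. Every KO value lay below every WT value, and the log2 fold change was -0.33 (SE 0.0246, edgeR adjusted p = 1.63e-14). Ddit3, which encodes the factor CHOP of prolonged stress, had 10.8, 9.65 and 12.2 CPM in KO libraries, against 15.1, 16.4 and 17.2 CPM in WT libraries. It was 1.49-fold lower in KO libraries (log2 fold change -0.58, SE 0.0792, edgeR adjusted p = 6.67e-08), although its span overlaps the methionyl-tRNA synthetase gene, which was higher. Atf5, a related factor translated in the same way as Atf4, had 58.7, 62.5 and 61 CPM in KO libraries, against 81.2, 83.7 and 79.6 CPM in WT libraries. Its libraries did not overlap either, with a log2 fold change of -0.42 (SE 0.0355, edgeR adjusted p = 5.48e-13).

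Nupr1, a small chromatin-associated stress protein induced by ATF4, went the other way. It had 11.3, 11.2 and 10.9 CPM in KO libraries, against 6.58, 6.29 and 6.73 CPM in WT libraries. It was 1.71-fold higher, with every KO library above every WT library (log2 fold change 0.77, SE 0.0881, edgeR adjusted p = 1.18e-09). Cebpg, a heterodimer partner of ATF4, was 0.13 higher on the log2 scale (SE 0.0389, edgeR adjusted p = 0.00406), but lay at -0.01 on log2(TPM + 1). The remaining regulators did not pass the test. Eif2ak3, which encodes PERK, had a log2 fold change of 0.09 (edgeR adjusted p = 0.086). Trib3, a pseudokinase that restrains ATF4 and CHOP, had -0.14 with non-overlapping libraries (edgeR adjusted p = 0.0505). With 1 library left out, its log2 fold change ran from -0.17 to -0.11. Of these fits, it passed only without KO replicate 3 (edgeR adjusted p = 0.0434) and without WT replicate 2 (0.0427). Ppp1r15a, which encodes the phosphatase subunit GADD34 that reverses eIF2 phosphorylation, had 23.7, 23.9 and 24.8 CPM in KO libraries, against 24.3, 24.2 and 24.2 CPM in WT libraries, and its groups overlapped (log2 fold change -0.01, edgeR adjusted p = 0.909).

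Of the 7 enzymes of amino acid, one-carbon and glutathione metabolism, 2 were higher (Asns and Shmt2, of which Shmt2 lost its call in several settings given below) and 3 were lower. Asns (chromosome 6, 7675165 to 7693209), which makes asparagine, had 157, 153 and 158 CPM in KO libraries, against 121, 117 and 117 CPM in WT libraries. It was 1.32-fold higher with no overlap (log2 fold change 0.40, SE 0.0276, edgeR adjusted p = 3.28e-15). Phgdh (chromosome 3, 98313171 to 98339969), the first enzyme of serine synthesis, had 58.8, 61.1 and 63.7 CPM in KO libraries, against 89.1, 87.2 and 88.8 CPM in WT libraries. It was 1.44-fold lower with no overlap (log2 fold change -0.53, SE 0.0349, edgeR adjusted p = 7.88e-16), and a pseudogene copy, Phgdh-ps1, could share its reads. Psat1, the next step of serine synthesis, was lower by less, with a log2 fold change of -0.18 (SE 0.0292, edgeR adjusted p = 1.77e-06). Psph, the last step, had 17.3, 18 and 20.3 CPM in KO libraries, against 19.2, 19.7 and 20.2 CPM in WT libraries, and its groups overlapped (log2 fold change -0.09, edgeR adjusted p = 0.224). It overlaps Cct6a. With 1 library left out, the log2 fold change of Psph ran from -0.15 to -0.04. Of these fits, it passed only without KO replicate 3 (-0.15, edgeR adjusted p = 0.0491).

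The mitochondrial one-carbon enzymes that use serine moved little. Shmt2 had a log2 fold change of 0.08 (SE 0.0311, edgeR adjusted p = 0.0314), lay at -0.06 on log2(TPM + 1), and missed the threshold under DESeq2 (0.125), when scaled by library totals alone (0.615), and without KO replicate 2 (0.0697), KO replicate 3 (0.118), WT replicate 1 (0.0956) or WT replicate 3 (0.0586). Mthfd2, which acts after Shmt2 on the folate unit, had a log2 fold change of -0.03 and overlapping groups (edgeR adjusted p = 0.433). Chac1 (chromosome 2, 119351242 to 119354326), which degrades glutathione, had 4.21, 4.65 and 3.72 CPM in KO libraries, against 7.02, 6.34 and 6.24 CPM in WT libraries. It was 1.56-fold lower with no overlap, on 73 to 91 counts in KO libraries and 128 to 143 counts in WT libraries (log2 fold change -0.64, SE 0.117, edgeR adjusted p = 1.06e-05).

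The 3 amino acid transporter genes form 2 exchangers that share a heavy chain, and the light chains moved in opposite directions. Slc7a11 (chromosome 3, 50364936 to 50499087), the light chain of the cystine-glutamate exchanger that feeds glutathione synthesis, had 242, 239 and 237 CPM in KO libraries, against 434, 428 and 417 CPM in WT libraries. It had the lowest fold change of all 42 members, 1.78-fold lower (log2 fold change -0.83, SE 0.0222, edgeR adjusted p = 9.81e-28). Slc7a5, the light chain of the large neutral amino acid exchanger, had 85.1, 89.3 and 88.3 CPM in KO libraries, against 74.5, 75.6 and 74.4 CPM in WT libraries. It was 1.17-fold higher with no overlap (log2 fold change 0.23, SE 0.0327, edgeR adjusted p = 1.67e-07). The size of this rise depended on scaling, with 0.08 as its lowest value in the alternative settings. Slc7a5 lost its call with an assumed coefficient of variation of 0.1 (edgeR adjusted p = 0.133). Slc3a2, the heavy chain that both light chains bind, was 0.13 higher on the log2 scale (SE 0.0195, edgeR adjusted p = 4.21e-07), but lay at -0.01 on log2(TPM + 1).

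Ratios within a library do not depend on how libraries are scaled, so 6 pairs of members were compared as TPM ratios, the pairs being chosen after their values had been seen. Slc7a11 over Slc3a2 was 0.123, 0.124 and 0.121 in KO libraries, against 0.243, 0.238 and 0.235 in WT libraries. Slc7a5 over Slc3a2 was 0.121, 0.129 and 0.126 in KO libraries, against 0.117, 0.118 and 0.117 in WT libraries. Slc7a5 over Slc7a11 was 0.985, 1.05 and 1.04 in KO libraries, against 0.481, 0.494 and 0.499 in WT libraries. Per unit length, KO libraries thus held about as much Slc7a5 as Slc7a11 RNA, and the mean KO ratio was 2.08 times the mean WT ratio. Asns over Phgdh was 2.52, 2.36 and 2.35 in KO libraries, against 1.29, 1.27 and 1.25 in WT libraries. Each of these 4 ratios separated the groups with an exact two-sided permutation p of 0.10, the smallest that 3 against 3 libraries can give, so none can reach 0.05.

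**Figure D3:**
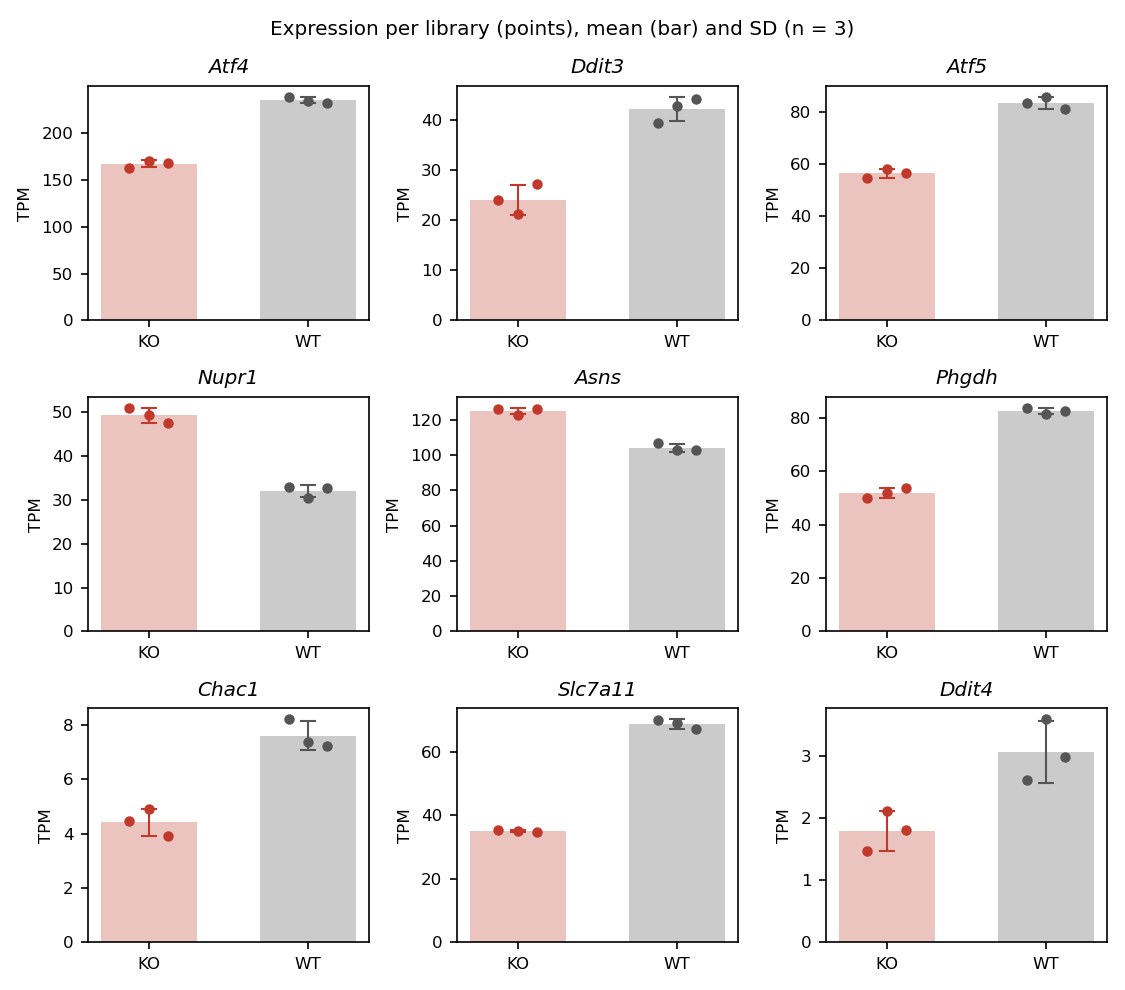
TPM of 9 ATF4 branch members in each library, KO left of WT, with points for libraries, bars for the mean and error bars for the SD (n = 3 each). Slc7a11 lies at 35.1 ± 0.352 TPM in KO and 68.8 ± 1.49 TPM in WT libraries, and of the 9 genes Asns and Nupr1 are higher in KO libraries.

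Of the 3 other stress targets of the ATF4 branch, Ddit4 and Vldlr were the least abundant of all 42 members in TPM. Ddit4, which restrains mTORC1, had 1.52, 2.2 and 1.88 CPM in KO libraries, against 2.45, 3.39 and 2.83 CPM in WT libraries. It was 1.55-fold lower without overlap, on 30 to 43 counts in KO libraries and 50 to 69 counts in WT libraries (log2 fold change -0.63, SE 0.179, edgeR adjusted p = 0.00228). Sesn2, another brake on mTORC1, had a log2 fold change of -0.13 (edgeR adjusted p = 0.0747). Vldlr, a lipoprotein receptor, had 1.88, 2.76 and 2.65 CPM in KO libraries, against 1.77, 1.08 and 2.44 CPM in WT libraries. Its groups overlapped and it did not pass the test (log2 fold change 0.46, edgeR adjusted p = 0.0521). With 1 library left out, its log2 fold change ran from 0.21 to 0.77. Of these fits, it passed only without WT replicate 3 (0.77, edgeR adjusted p = 0.00496) and without KO replicate 1 (0.62, 0.0184).

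In the ER branch, the sensor Ern1 was lower, and the factor genes Xbp1 and Atf6 were higher in edgeR's fit but near 0 on log2(TPM + 1). Ern1, which encodes IRE1, had 18.5, 18 and 18.9 CPM in KO libraries, against 21.9, 22.4 and 21.4 CPM in WT libraries, with no overlap (log2 fold change -0.24, SE 0.0584, edgeR adjusted p = 0.000403). Xbp1, the transcript that IRE1 splices, had 161, 168 and 166 CPM in KO libraries, against 149, 154 and 150 CPM in WT libraries. It was 0.13 higher on the log2 scale (SE 0.0264, edgeR adjusted p = 6.75e-05), but lay at -0.01 on log2(TPM + 1). Atf6 was 0.12 higher (SE 0.0279, edgeR adjusted p = 0.000238), but also lay at -0.01 on log2(TPM + 1).

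Of the 5 chaperones, 4 were lower in KO libraries, and Calr was higher in edgeR's fit but lower on log2(TPM + 1). Hspa5 (chromosome 2, 34772090 to 34776529), which encodes BiP, the main HSP70 of the ER, had 723, 700 and 731 CPM in KO libraries, against 793, 776 and 774 CPM in WT libraries. The groups did not overlap, but the difference was 1.09-fold (log2 fold change -0.12, SE 0.0193, edgeR adjusted p = 1.02e-06), and the gene's span overlaps Rabepk. Hsp90b1 (chromosome 10, 86690841 to 86705444), the HSP90 of the ER, had 649, 638 and 660 CPM in KO libraries, against 718, 710 and 701 CPM in WT libraries. Its difference was of the same size, at 1.09-fold lower (log2 fold change -0.13, SE 0.019, edgeR adjusted p = 2.74e-07). Hyou1, the exchange factor that recharges BiP, moved furthest of the 5, with 146, 150 and 146 CPM in KO libraries, against 172, 171 and 179 CPM in WT libraries (log2 fold change -0.24, SE 0.0264, edgeR adjusted p = 4.17e-10).

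The lectin chaperones of glycoproteins moved apart relative to each other. Canx, the membrane-bound lectin, had 516, 508 and 501 CPM in KO libraries, against 565, 552 and 558 CPM in WT libraries (log2 fold change -0.14, SE 0.0196, edgeR adjusted p = 1.82e-07). Calr, the soluble lectin, had 1049, 1019 and 1034 CPM in KO libraries, against 976, 986 and 980 CPM in WT libraries. It was 0.08 higher on the log2 scale (SE 0.0175, edgeR adjusted p = 0.000231) but lower by -0.06 on log2(TPM + 1), where it also passed (limma adjusted p = 0.0106), and a copy, Calr-ps, could share its reads. The TPM ratio of Calr to Canx, which no library scaling can move, was 5, 4.92 and 5.06 in KO libraries, against 4.26, 4.38 and 4.31 in WT libraries (exact two-sided permutation p = 0.10, the smallest possible).

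Of the 3 protein disulfide isomerases, which form the disulfide bonds of secretory proteins, only Pdia6 passed the test (on log2(TPM + 1) all 3 did, with Pdia3 at -0.16 and Pdia4 at -0.15), with a log2 fold change of -0.13 (SE 0.0245, edgeR adjusted p = 1.43e-05). Pdia3 had 658, 632 and 641 CPM in KO libraries, against 663, 641 and 651 CPM in WT libraries, and its groups overlapped (log2 fold change -0.02, edgeR adjusted p = 0.434). Pdia4 overlapped too, at -0.01 (edgeR adjusted p = 0.708). Among the 4 co-chaperones, Dnajb11, which brings clients to BiP, had a log2 fold change of -0.19 (SE 0.0313, edgeR adjusted p = 2.99e-06). Dnajc3, a J-domain protein that also inhibits PERK, had -0.16 (SE 0.0339, edgeR adjusted p = 8.21e-05). Dnajb9, a J-domain protein that restrains IRE1, was not called, at -0.09 (edgeR adjusted p = 0.0915). Sdf2l1, a partner of ER J-domain proteins, was 0.12 higher (SE 0.0376, edgeR adjusted p = 0.00552) but lay at -0.02 on log2(TPM + 1).

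The degradation genes split as well. Herpud1 (chromosome 8, 94386429 to 94395371), a scaffold of the retrotranslocation complex and a member with both a CARE and an ERSE-II in its promoter, had 59.7, 64.3 and 64.9 CPM in KO libraries, against 53.2, 50.6 and 54.5 CPM in WT libraries. It had the highest fold change of the ER branch, 1.19-fold higher with no overlap (log2 fold change 0.25, SE 0.04, edgeR adjusted p = 8.9e-07). On log2(TPM + 1) it lay at 0.11 (limma adjusted p = 0.0327), and without a filter on that scale it missed the threshold (0.0597). Edem1, which selects misfolded glycoproteins, was lower, with 301, 301 and 292 CPM in KO libraries, against 342, 328 and 339 CPM in WT libraries (log2 fold change -0.17, SE 0.0227, edgeR adjusted p = 2.49e-08). Sel1l, the adaptor of the ubiquitin ligase, was lower at -0.11 (SE 0.0248, edgeR adjusted p = 0.000125). Syvn1, the ligase HRD1 that SEL1L binds, overlapped between groups, at -0.08 (edgeR adjusted p = 0.111). With 1 library left out, its log2 fold change ran from -0.12 to -0.04. Of these fits, it passed only without KO replicate 2 (-0.12, edgeR adjusted p = 0.0249). The TPM ratio of Sel1l to Syvn1 was 2.19 ± 0.0863 in KO and 2.29 ± 0.0323 in WT libraries (SD, n = 3 each), with an exact two-sided permutation p of 0.20.

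Both secreted ER stress proteins were lower. Manf, a factor that leaves the ER when calcium falls, had 109, 105 and 112 CPM in KO libraries, against 127, 126 and 125 CPM in WT libraries (log2 fold change -0.22, SE 0.029, edgeR adjusted p = 3.61e-08). Creld2, a secreted disulfide isomerase, had 21.1, 21.8 and 20.2 CPM in KO libraries, against 24.7, 25.7 and 26.2 CPM in WT libraries. It had the lowest fold change of the ER branch, 1.22-fold lower (log2 fold change -0.28, SE 0.0554, edgeR adjusted p = 3.06e-05).

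Per unit length, the ER branch held most of the members' RNA. Calr was the most abundant member, with 837 ± 12.6 TPM in KO and 875 ± 4.29 TPM in WT libraries, before Hspa5 with 423 ± 8.73 TPM in KO and 507 ± 8.17 TPM in WT libraries (SD, n = 3 each). Slc3a2 led the ATF4 branch, with 286 ± 2.26 TPM in KO and 289 ± 2.1 TPM in WT libraries, and Atf4 followed with 167 ± 3.66 TPM in KO and 235 ± 3.16 TPM in WT libraries. Summed over its 21 genes, the ATF4 branch held 1139, 1151 and 1156 TPM in KO libraries, against 1348, 1334 and 1326 TPM in WT libraries. The 21 ER branch genes summed to 3302, 3256 and 3291 TPM in KO libraries, against 3796, 3751 and 3728 TPM in WT libraries. The sums did not overlap between groups in either branch, and the KO sums stood at 0.86 of WT for the ATF4 branch and 0.874 of WT for the ER branch, on a scale whose median over all genes was itself lower in KO libraries (log2 -0.12).

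**Figure D4:**
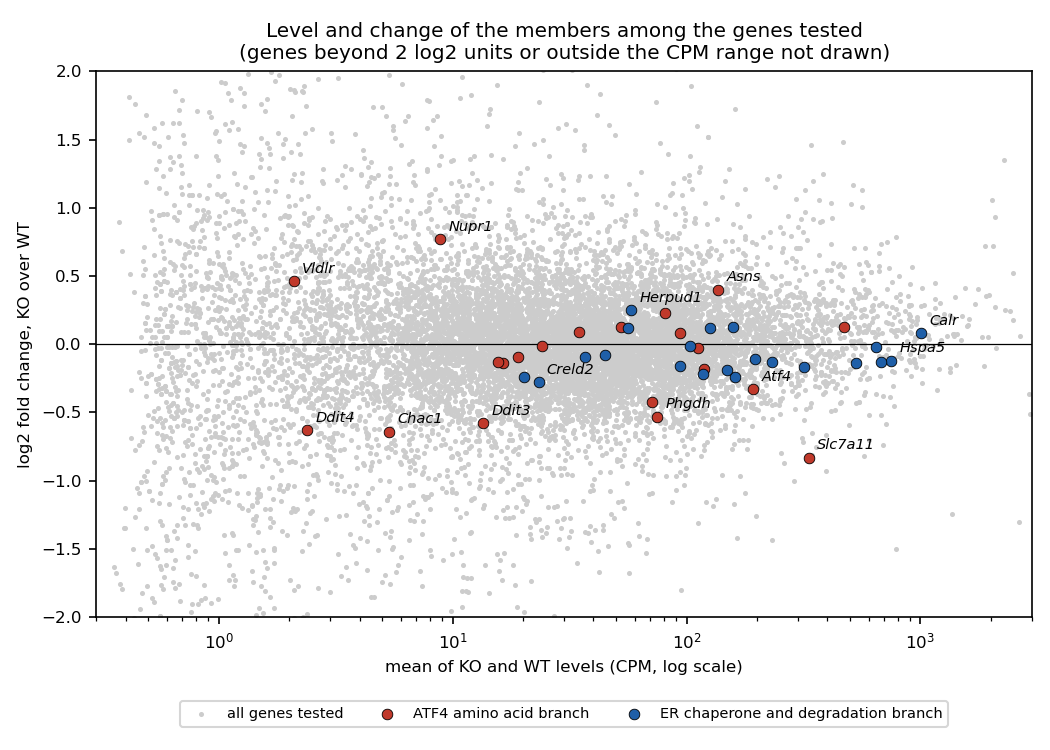
Log2 fold change, KO over WT, against the mean of the KO and WT levels in CPM on a log axis, with members coloured by branch over all tested genes in grey. Calr and Hspa5, the members with the highest CPM, lie at 0.08 and -0.12, and the members beyond 0.5 on the log2 scale all belong to the ATF4 branch.

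Promoter motifs did not sort the ATF4 branch by direction. Of its 6 genes with a CARE match, 2 were higher (Nupr1 and Asns), 2 were lower (Slc7a11 and Chac1) and Trib3 and Vldlr were not called, with a median log2 fold change of 0.13. Of the 14 genes with a window but no CARE, 3 were higher and 6 were lower, with a median of -0.11. In the ER branch, 8 genes with an ERSE match gave 1 higher and 6 lower calls and a median log2 fold change of -0.13, and the 10 genes with a window but no ERSE gave 3 higher and 4 lower calls and a median of -0.05. These differences between genes with and without a motif were not tested.

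Outside the 42 genes, 123 further genes of the same pathways were in the table, of which 119 were tested, 50 were higher and 35 were lower (71.4% called, against 69.2% of all tested genes), with a median log2 fold change of 0.04. As in the members, the balance depends on scaling, and most of these lists had more lower than higher calls on log2(TPM + 1), as given for each. Among 15 tested genes of the integrated stress response, 6 were higher and 7 were lower (1 and 8 on log2(TPM + 1)). Gdf15, a stress cytokine induced by ATF4 and CHOP, had 5.53, 5.87 and 5.4 CPM in KO libraries, against 15.2, 17.4 and 15.6 CPM in WT libraries (log2 fold change -1.52, edgeR adjusted p = 1.71e-17). Ndrg1, a stress and differentiation gene, had 244, 243 and 241 CPM in KO libraries, against 128, 128 and 122 CPM in WT libraries (log2 fold change 0.94, edgeR adjusted p = 1.9e-27). These 2 genes thus moved further than any of the 42, in opposite directions. Eif2ak4, which encodes GCN2, was lower at 21 ± 1.54 CPM in KO and 27.1 ± 0.569 CPM in WT libraries (SD, n = 3 each, log2 fold change -0.36).

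Of 12 tested amino acid genes outside the members, 5 were higher and 2 were lower (2 and 5 on log2(TPM + 1)), and the higher count was 3 without WT replicate 3 and 1 under DESeq2. The 2 genes called lower by edgeR were transporters, Slc7a1, which takes up cationic amino acids (log2 fold change -0.32), and Slc38a2, which takes up small neutral amino acids (-0.29). Of 20 cytosolic aminoacyl-tRNA synthetase genes, 8 were higher and 3 were lower (3 and 12 on log2(TPM + 1)), all by less than 1.5-fold, with Wars at 0.25, Yars at 0.23 and Rars at -0.20 on the log2 scale.

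Of 20 other ER folding genes, 9 were higher and 4 were lower (3 and 10 on log2(TPM + 1)). The oxidases that recharge protein disulfide isomerases were both lower, Ero1l with 90.6, 89.1 and 89.1 CPM in KO libraries, against 127, 126 and 122 CPM in WT libraries (log2 fold change -0.48, edgeR adjusted p = 9.8e-17), and Ero1lb with 33, 32.2 and 32.3 CPM in KO libraries, against 46, 48.5 and 47.6 CPM in WT libraries (log2 fold change -0.54). Erp29, an ER chaperone of secretory proteins, was higher at 243 ± 18.2 CPM in KO and 182 ± 1.23 CPM in WT libraries, with a log2 fold change of 0.42. Of 17 other degradation genes, 8 were higher and 5 were lower (2 and 8 on log2(TPM + 1)), with Rnf5, a membrane ubiquitin ligase, at 0.43, Os9, a lectin of the SEL1L complex, at 0.39 and Edem3, a mannosidase, at -0.33 on the log2 scale. Of 26 translocation and glycosylation genes, 9 were higher and 11 were lower (1 and 20 on log2(TPM + 1)), with the X-linked translocon subunit Ssr4 at 0.39, the translocon partner Sec63 at -0.32 and the signal peptidase subunit Spcs3 at -0.31. Of 9 other sensors and ER-bound factors, 5 were higher and 3 were lower (4 and 4 on log2(TPM + 1)), and Atf6b, the paralog of Atf6, had 101 ± 4.41 CPM in KO and 74 ± 1.78 CPM in WT libraries (log2 fold change 0.44, edgeR adjusted p = 7e-14).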

How the data were processed

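Per the labels' protocols, RNA was polyA-selected from sorted alveolar macrophages of 3 KO and 3 WT samples. The submitters' processing notes name HISAT, Bowtie2 and build GRCm38.p6, but the sources used here do not name the counter, the annotation or the use of strand. The deposited estimated counts per gene, not whole for 8.66% to 9.19% of genes, were rounded. Per the file headers, the authors also gave TPM and FPKM values. The deposited normalised count signal and the authors' log2 values for a heat map were not tested. KO was compared with WT in edgeR 4.0.16 (R 4.3.3; quasi-likelihood test, TMM scaling, filterByExpr, group only) on all 11817 genes kept, and p-values were adjusted by Benjamini-Hochberg to a threshold of 0.05. The filter removed 4007 genes. CPM uses TMM-adjusted library sizes, and SE is the log2 fold change over the square root of F. Alternatives were other scaling and filters, DESeq2 1.42.0, limma 3.58.1 on log2 of FPKM or TPM with pseudocounts of 1 and 0.1, a replicate block, an assumed coefficient of variation of 0.1 and each library left out. One with TPM medians set equal was chosen after the data were seen.

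The members and gene lists were chosen with earlier results of these data known. All members are described, and further pathway genes are named from the 4 called genes per list with the largest absolute log2 fold change and at least 1 CPM. RefSeq (GRCm38.p6) gave coordinates, matching 15774 of 15824 gene identifiers, and promoters. Slc7a5, Manf, Hyou1 and Atf6 had no promoter entry. Gene spans of Psph, Ddit3, Atf5, Hspa5 and Syvn1 overlap neighbours, and Phgdh and Calr have pseudogene copies, so their counts are uncertain. For pairs of libraries, the mean chi-square of counts per gene was 1.38 to 1.61 within groups and 62.13 to 65.19 between groups. No library was merged with another, but these values cannot show whether libraries of a group come from separate animals. Python 3.11.15, pandas 2.3.3, SciPy 1.17.1 and matplotlib 3.10.9 were used for tables, permutation tests and plots. The gene test was tried on simulated counts in which few genes changed, evenly up and down. These data are unlike that, so the trial does not show how the test behaves here.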

Additional observations from a re-analysis of the deposited data

How the results depend on the processing

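Scaling moved the direction of the small changes. On log2(TPM + 1), log2(TPM + 0.1) and unfiltered log2(TPM + 1), the ATF4 branch had 3 higher and 13 lower genes and medians of -0.25, -0.26 and -0.25, and the ER branch had 1, 1 and 0 higher genes and a median of -0.26. On these scales Eif2ak3 lay at -0.05, Cebpg, Slc3a2 and Xbp1 at -0.01, Atf6 at -0.01, -0.02 and -0.01, Shmt2 and Calr at -0.06 and Sdf2l1 at -0.02. On log2(FPKM + 1) the median was -0.17 in the ATF4 branch and -0.18 in the ER branch, with 2 higher ER branch genes. Without scaling beyond library totals, the ER branch had 3 higher genes and a median of -0.18. With an assumed coefficient of variation of 0.1, 4406 genes passed over all, 2 ATF4 branch genes were higher, 0 ER branch genes were higher and 0 lower, and 22 of the further pathway genes passed, against 85 in edgeR's fit. Values near 0 changed sign for Ppp1r15a (0.0022 without a low-count filter, 0.01 without KO replicate 1, 0.0025 without KO replicate 2, 0.01 with TPM medians set equal), Mthfd2 (0.0023 without WT replicate 1) and Pdia4 (0.0046 without KO replicate 3), whose lowest values with 1 library left out were -0.03, -0.04 and -0.03. Leaving out 1 library gave 5 to 7 higher and 8 to 10 lower ATF4 branch genes, and 5 higher and 12 to 13 lower ER branch genes. No ER branch gene reached 1.5-fold with a call in any setting. Same-numbered libraries did not deviate together (correlations of -0.042, 0.031 and 0.024), so the numbers are no pairing; a replicate block gave 7 higher and 9 lower ATF4 branch genes and 5 higher and 12 lower ER branch genes, with Trib3 (adjusted p = 0.0468) and Vldlr (0.0318) now passing. The causes of these shifts were not tested. With 3 libraries a group, the members with the fewest counts, Chac1, Ddit4 and Vldlr, have the widest errors.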
